A study of Homo sapiens with 6 samples.

Results

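PC9 is a human lung adenocarcinoma line driven by a mutant epidermal growth factor receptor (EGFR), with the genotype given as EGFR-del, and osimertinib is an inhibitor of the EGFR kinase. The cells described here are drug-tolerant persisters, PC9 cells left after 9 days of acute exposure to 1.2 µM osimertinib. The authors' deposited cell table, whose name holds g1, lists 673 of the 823 persisters in the count table. The other 150 persisters (18.2%, 95% exact binomial interval 15.6 to 21) are absent from it, and they are compared here with the listed ones. The whole PC9 count table held 11258 cells of 10 populations, of which 4208 were listed. The other populations were untreated cells and cells adapted by stepwise escalation to 8, 16, 32, 75, 150, 300 and 600 nM and to 1.2 µM osimertinib. Populations were tagged with CellPlex oligonucleotides, pooled and sequenced as 1 library on the 10x Chromium platform with 3′ chemistry.

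The 150 unlisted persisters held 1136018 unique molecular identifiers (UMIs, each standing for 1 captured transcript) and the 673 listed ones 3772210. Levels are given as CPM, the counts of a gene among 1000000 UMIs, and 3 counts, the limit for a gene without a UMI, equal 2.64 CPM in unlisted and 0.795 CPM in listed persisters. Unlisted persisters were deeper, with a median of 7578.5 against 5476 UMIs and 3188 against 2419 genes per cell. That ratio of depths was 1.38, and it lay between 1.24 and 1.45 in the other 9 populations. The mitochondrial share was 8.58% against 8.55%. Each population was 1 culture in 1 library, so the cells allow no test between conditions, and sizes are given without p-values. Intervals in parentheses are 95% exact intervals, of the ratio of CPM after a ratio and binomial after a share of cells. They cover counting error only. No cell barcode was shared between populations, but in 1 pooled library each barcode is given to 1 population by its tag. This count therefore does not show that tags were assigned correctly, and misassignment was not tested. The criterion for listing a cell is not given in the sources used here, so genes of the cell cycle are reported as a description of the split and not as its result. Of the listed persisters, 599 were in the authors' cluster 1 and 74 (11.0%) in clusters that held mostly untreated or adapted cells. Epithelial genes summed to 9407 CPM in unlisted and 13036 CPM in listed persisters, and 15 of the 17 measured ones lay below 0 with a median of -0.43 on the log2 scale, at the lower end of the -0.43 to -0.28 of the same split elsewhere. The keratin KRT18 stood at 1983 against 2438 CPM and KRT19 at 1192 against 2097 CPM, and the adhesion protein EPCAM at 314 against 255 CPM. Markers of other cells were sparse: the summed levels of the immune, endothelial, fibroblast, erythroid and melanocyte lists ran from 0 to 100 CPM in unlisted and from 0.265 to 87.0 CPM in listed persisters. No erythroid marker had a UMI in unlisted persisters.

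Persisters are cells that outlive a targeted drug without a stable resistance mutation, and most of them stop dividing. A cell that divides passes from G1 into S phase, when E2F factors release genes of DNA replication, and later through G2 and mitosis, when B-MYB, FOXM1 and the MuvB complex drive genes of the spindle and of chromosome segregation. In resting cells the DREAM complex holds both groups silent through short promoter elements. These are the E2F site and the cell cycle genes homology region (CHR), which often has a CCAAT box next to it that binds NF-Y.

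The promoters shown are those of the S-phase genes CDC45 and RAD51AP1 and the G2 and M-phase genes CDK1, CDCA8 and MKI67, which had the largest ratios of their lists, and of the marker TYMS, the seventh of the S-phase genes. They are shown because both gene groups are known to be controlled through these elements. Each line is the 150 bases before the RefSeq start of the gene, on GRCh38.p14, 5′ to 3′ on the strand of the gene. Capitals mark the CHR (TTTGAA), the CCAAT box (CCAAT) and the E2F site (TTTGGCGC, TTTCGCGC, TTTCCCGC or TTTGCCGC), each searched on both strands. The first 3 are S-phase genes and the last 3 are genes of G2 and mitosis.
CDC45, chr22:19479770-19479919, plus strand: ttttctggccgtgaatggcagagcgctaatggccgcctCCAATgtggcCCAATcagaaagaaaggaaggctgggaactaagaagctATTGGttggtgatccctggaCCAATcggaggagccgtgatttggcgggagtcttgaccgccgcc
RAD51AP1, chr12:4538740-4538889, plus strand: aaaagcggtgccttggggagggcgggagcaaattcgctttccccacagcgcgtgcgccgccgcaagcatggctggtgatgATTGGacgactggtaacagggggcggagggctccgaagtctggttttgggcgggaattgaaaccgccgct
TYMS, chr18:657503-657652, plus strand: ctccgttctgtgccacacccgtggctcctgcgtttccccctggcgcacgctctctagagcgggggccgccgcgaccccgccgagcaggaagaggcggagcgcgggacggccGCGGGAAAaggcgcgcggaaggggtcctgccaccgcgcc
CDK1, chr10:60778181-60778330, plus strand: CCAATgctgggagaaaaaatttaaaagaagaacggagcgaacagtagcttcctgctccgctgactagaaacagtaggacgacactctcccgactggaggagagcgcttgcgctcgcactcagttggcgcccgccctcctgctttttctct
CDCA8, chr1:37692366-37692515, plus strand: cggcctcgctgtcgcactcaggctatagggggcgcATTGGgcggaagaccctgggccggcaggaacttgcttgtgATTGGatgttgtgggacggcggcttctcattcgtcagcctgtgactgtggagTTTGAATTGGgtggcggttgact
MKI67, chr10:128126424-128126573, minus strand: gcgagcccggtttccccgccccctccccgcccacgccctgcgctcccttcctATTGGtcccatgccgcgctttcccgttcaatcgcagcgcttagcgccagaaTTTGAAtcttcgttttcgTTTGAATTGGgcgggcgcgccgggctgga
CDC45, a subunit of the replicative helicase, has 4 CCAAT boxes in this window. TYMS, thymidylate synthase, has 1 E2F site, which starts at position -39 from the gene's start. MKI67, the proliferation marker Ki-67, has 2 CHR matches, and that at -29 shares 1 base with the CCAAT box at -24. CDCA8, a subunit of the chromosomal passenger complex, has 1 CHR at -23, which also shares a base with a CCAAT box. Over the measured genes the table of RefSeq promoters held 7144 of 8836 symbols (80.9%). A CHR was present in 21 of 44 promoters of measured G2 and M-phase genes (47.7%), in 0 of 30 of S-phase genes, in 3.93% of measured genes and in 7.44% of all 27305 promoters of this length. The E2F site was present in 10 of 30 S-phase promoters (33.3%), in 0 of 44 of the G2 and M-phase genes, in 3.04% of measured genes and in 1.82% of all promoters. CCAAT boxes were present in 65.9% of G2 and M-phase, 56.7% of S-phase and 24.4% of all promoters. Among 461 promoters of genes higher in unlisted persisters and in neither list, 49 (10.6%) held a CHR and 33 (7.16%) an E2F site. Among 353 promoters of genes lower there the shares were 4.53% and 1.42%. In the windows above, CDC45 and RAD51AP1 held no match to the E2F site and CDK1 none to the CHR, which says only that these letters are absent there. A match is a description of the letters and not of binding.

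The share of cells absent from the table was lowest in persisters. It was 87.1% in untreated cells and lay between 60.1% and 69% in the 8 adapted populations, whereas 18.2% of persisters were absent. With 1 culture per population, the spread of this share between cultures is unknown.

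Across the genome 8836 genes were measured, which means at least 10 CPM and 20 UMIs on the higher side. Of these, 667 (7.55%) were higher by 2-fold or more and 492 (5.57%) lower by 2-fold or more in unlisted than in listed persisters, on log2(CPM + 1). The median gene stood at -0.01 on the log2 scale. The 20-UMI minimum equals 17.6 CPM in unlisted and 5.30 CPM in listed persisters, so a gene of 10 to 17.6 CPM could be called lower but not higher. A gene that passed the minimum on 1 side alone tends to differ through that choice. Of the 667 higher genes 296 passed through unlisted persisters alone, and of the 492 lower genes 323 through listed persisters alone. With every cell thinned to 3783 UMIs, 432 genes were higher and 653 lower. The higher share of calls was then 39.8% in place of 57.5%, and the median of all genes moved to -0.14. Thinning left 369 of the 667 higher and 475 of the 492 lower genes measured. The minimum thus removed more genes on the higher side, and the change in this share is partly set by it.

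Genes of DNA replication and mitosis led the higher side. The marker gene TYMS stood at 139 against 11.4 CPM in unlisted and listed persisters, 12.2-fold higher (8.66 to 17.5). The marker UBE2C, the ubiquitin-conjugating enzyme of the anaphase-promoting complex, stood at 238 against 11.4 CPM (20.9-fold, 15.1 to 29.5). Both marker genes were thus higher in the unlisted cells. The largest ratio among the G2 and M-phase genes was that of CDK1, the kinase that starts mitosis, at 165 against 5.04 CPM (32.7-fold, 20.3 to 55.5). MKI67 stood at 306 against 13.8 CPM and TOP2A, the topoisomerase that untangles chromosomes, at 283 against 13.0 CPM. CDC45 had 32 UMIs in unlisted and 2 in listed persisters, a 53.1-fold ratio with an interval of 13.6 to 458.

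Of the 43 S-phase genes 38 were measured, and 35 of them were higher with a list median of 2.64 on the log2 scale. The other 3 measured genes, SLBP, TIPIN and CASP8AP2, were under 2-fold. Of the 54 G2 and M-phase genes 53 were measured and 51 were higher, with a median of 3.36, while RANGAP1 and CTCF were under 2-fold. No gene of either list was lower. Of the measured genes, 21 of the S-phase and 22 of the G2 and M-phase list passed the minimum through unlisted persisters alone. S-phase genes summed to 2746 CPM in unlisted and 553 CPM in listed persisters. G2 and M-phase genes summed to 8406 and 1340 CPM. The plot of all measured genes shows both lists above the cloud.

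**Figure D1:**
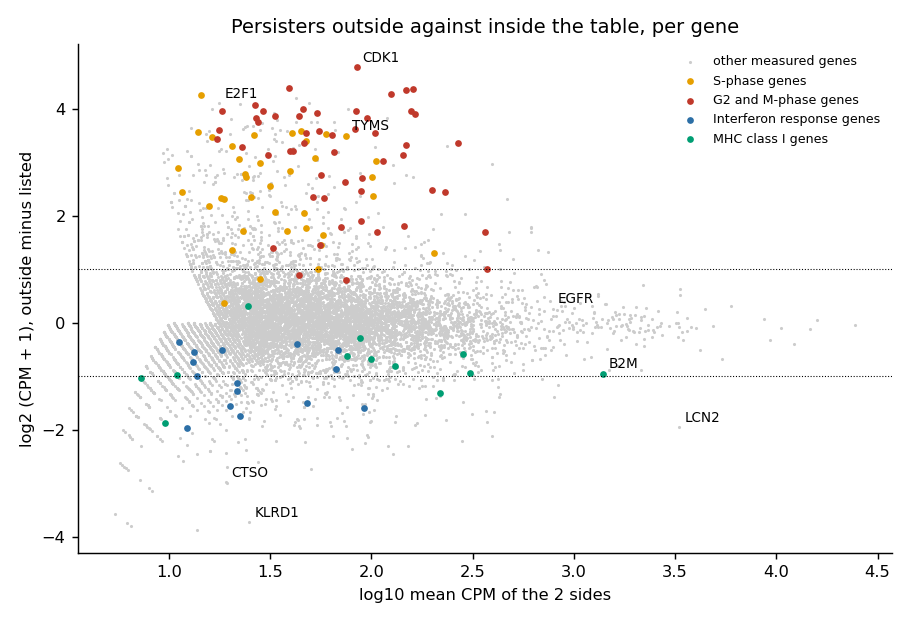
Ratio of unlisted to listed persisters for each of 8836 measured genes, against the mean level of the gene (both axes on log scales, each point 1 gene, dotted lines at 2-fold). Genes of S phase and of G2 and mitosis lie mostly above the upper line, and the 15 measured interferon response genes, 10 of which passed the minimum through listed persisters alone, lie below 0.

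The regulators of both gene groups stood higher in part. Of 19 genes of the E2F and DREAM list 14 were measured, 6 of them through unlisted persisters alone, and 9 were higher and none lower. The list median of 1.55 fell to 0.87 in thinned cells, where 5 of 11 were higher and E2F5 was lower, and to 0.78 with a minimum of 50 CPM, where 4 of 9 were higher. E2F1, the activator of replication genes, had 39 UMIs in unlisted and 4 in listed persisters (34.3 against 1.06 CPM, 32.4-fold, 11.7 to 125). MYBL2, which encodes B-MYB, stood at 154 against 21.2 CPM (7.26-fold, 5.54 to 9.59). FOXM1 stood at 112 against 18.6 CPM (6.02-fold, 4.47 to 8.19). The pocket protein RBL1 was 5.63-fold higher (3.67 to 8.75), and RB1 and RBL2, the pocket proteins of G1 and of resting cells, were under 2-fold with 0.43 and 0.30 on the log2 scale. The repressor E2F7 was 18.0-fold higher (7.95 to 47.8).

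Of 11 measured genes in the list of cyclins, cyclin-dependent kinases and their activators, 4 were higher: the cyclins CCNF, CCNA2 and CCNB1 and the phosphatase CDC25B, which activates mitotic kinases. Except for CCNB1, these passed the minimum through unlisted persisters alone. Cyclin A2 (CCNA2) stood at 95.1 against 6.10 CPM and cyclin B1 (CCNB1) at 226 against 28.4 CPM. The G1 cyclin CCND1 stood at 401 against 255 CPM, 1.57-fold (1.40 to 1.76), and its partner CDK4 at 122 against 68.1 CPM, 1.80-fold (1.45 to 2.22).

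The 5 measured inhibitors of cyclin-dependent kinases split. CDKN2B, the p15 inhibitor of CDK4 and CDK6, stood at 22.9 CPM in unlisted and 70.0 CPM in listed persisters, 3.06-fold lower (2.04 to 4.77). CDKN2A was 1.26-fold lower (1.12 to 1.41). CDKN1A, which encodes p21, was 1.66-fold higher (1.09 to 2.48), and CDKN1B, which encodes p27, differed by 1.11-fold with an interval of 0.761 to 1.58. CDKN3, a phosphatase that acts on cyclin-dependent kinases, stood at 280 against 41.4 CPM (6.77-fold, 5.57 to 8.25).

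Histone genes went in both directions; like HLA, tubulin and metallothionein genes they have near-identical copies between which reads can be misassigned, so single members are uncertain. Of 18 measured, 8 were higher and 3 lower, with a median of 0.76 on the log2 scale. Among these, 4 higher genes passed the minimum through unlisted and 1 lower gene through listed persisters alone. In thinned cells 4 of 15 were higher and 4 lower, with a median of 0.35. The replication-dependent HIST1H4C stood at 699.8 against 88.3 CPM (7.93-fold, 6.97 to 9.04), and the linker histone HIST1H1D at 145 against 8.22 CPM (17.7-fold, 12 to 26.8). The variant H2AFZ stood at 955 against 277 CPM. The 3 genes lower in unlisted persisters were HIST1H2AC (56.3 against 206 CPM), HIST1H2BD (31.7 against 154 CPM) and HIST2H2BE (7.04 against 26.5 CPM), named after their values were seen. The linker histone HIST1H1C stood at 265 against 318 CPM, -0.26 on the log2 scale, whereas the same split gave 0.97 to 1.67 in the other 9 populations. Its level in the unlisted cells of untreated and 1.2 µM populations was 355 and 317 CPM. In their listed cells it was 111 and 127 CPM, below the 318 CPM of listed persisters.

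Genes that serve replication were higher as groups. Of 21 measured DNA repair genes 14 were higher and none lower, but 7 of the 14 passed the minimum through unlisted persisters alone. Among the 14 were BRCA2 of homologous recombination (12.4-fold, 7.4 to 21.8) and FANCI of the crosslink repair pathway (7.04-fold, 5.11 to 9.80). All 16 measured nucleotide synthesis genes lay above 0 and 8 were higher. Thymidine kinase TK1 stood at 95.1 against 27.3 CPM. Of 17 measured nuclear envelope and chromatin genes 12 were higher, 2 of them, LMNB1 included, through unlisted persisters alone. LMNB1, the lamin B1 of the nuclear envelope, stood at 55.5 against 5.30 CPM (10.5-fold, 6.24 to 18.3), and LMNA at -0.02 on the log2 scale. The tubulin gene TUBA1B stood at 948 against 277 CPM and the chromatin protein HMGB1 at 935 against 289 CPM (3.23-fold, 2.96 to 3.52).

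Per cell, the groups overlapped little. The S-phase list took a median of 0.239% of the UMIs of an unlisted and 0.046% of a listed persister, and the G2 and M-phase list 0.827% and 0.112%. The levels reached by 5% of listed persisters were 0.147% for S and 0.328% for G2 and M. Of the 150 unlisted persisters 84 exceeded both levels, 50 the G2 and M level alone, 16 the S level alone, and 0 neither, for which 3 counts set a limit of 2% and the exact binomial interval one of 2.43%. In thinned cells 1 of 131 exceeded neither. Of the 673 listed persisters 615 exceeded neither and 58 exceeded at least 1 of them, and 53 unlisted and 74 listed persisters lay within a factor of 0.8 to 1.25 of a level. These classes are ranges of a continuous value and not cell types.

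**Figure D2:**
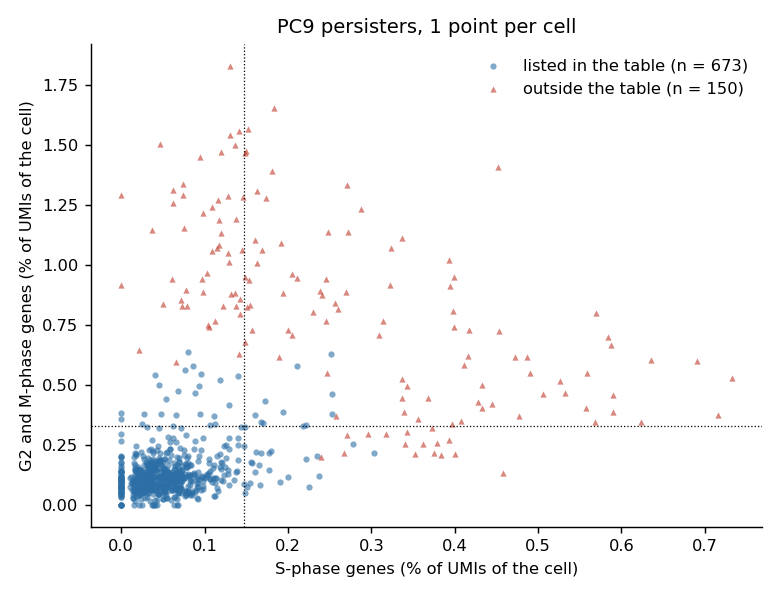
Share of UMIs in S-phase genes and in G2 and M-phase genes for each persister, unlisted (triangles, n = 150) and listed (circles, n = 673). Dotted lines mark the levels exceeded by 5% of listed persisters, 0.147% and 0.328%; no triangle lies under both.

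Unlisted persisters held less S-phase content than the unlisted cells of the other populations, with a median of 0.239% against 0.293% to 0.362% of UMIs. Their median G2 and M content of 0.827% lay within the 0.621% to 0.877% of the others and below that of the 75, 150 and 300 nM cells. Cells with high G2 and M and low S content were counted in persisters, untreated and 1.2 µM cells. With cells thinned to 3783 UMIs (131 unlisted and 540 listed persisters kept, 19 and 133 left out) 41.2% of unlisted persisters (32.7 to 50.2) exceeded only the G2 and M level. The share was 12.9% (11.0 to 15.1) in unlisted untreated and 20.4% (17.3 to 23.8) in unlisted 1.2 µM cells. Before thinning these shares were 33.3%, 7.33% and 15.1%. Both levels were exceeded by 48.1%, 79.4% and 66.8% of the thinned cells. MCM4, a subunit of the replicative helicase, had a UMI in 13.0% of thinned unlisted persisters (7.75 to 19.96), 27.6% of untreated and 20.3% of 1.2 µM unlisted cells. Genes of G2 and mitosis did not share 1 order. MKI67 had a UMI in 66.4% (57.6 to 74.4), 54.1% and 55.2% of these groups, and CCNB1 in 53.4%, 40.4% and 41.5%. UBE2C had one in 42.0% (33.4 to 50.9), 37.2% and 47.6%, TOP2A in 50.4%, 35.6% and 51.6%, and CDK1 in 39.7%, 31.8% and 38.0%. In listed persisters MKI67 was seen in 4.07% and TYMS in 3.52%, against 35.1% of unlisted ones for TYMS. Without thinning the TYMS shares were 52.7% and 5.50%. KRT18 had a UMI in 99.2% of unlisted and 99.1% of listed thinned persisters.

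The same split was taken in all 10 populations to ask where that of the persisters differed. In untreated cells 285 genes (3.36%) were higher and 71 (0.837%) lower outside the table, and in 1.2 µM adapted cells 504 (5.32%) and 137 (1.45%). The median of the G2 and M-phase list was 3.36 in persisters and 1.45 to 2.95 in the others, and that of the S-phase list 2.64 against 1.33 to 2.17. The listed side differed most: G2 and M-phase genes summed to 1340 CPM in listed persisters, 2065 CPM in listed 1.2 µM cells and 3521 CPM in listed untreated cells. In unlisted cells the sums were 8406, 8141 and 7243 CPM. For S-phase genes the unlisted sums were 2746, 3280 and 3496 CPM in persisters, 1.2 µM and untreated cells, and the listed sums 553, 915 and 1498 CPM. E2F1 stood at 34.3, 23.7 and 24.7 CPM in the unlisted cells of these populations and at 1.06, 4.81 and 9.73 CPM in their listed cells. Over all measured genes the persister ratio lay above the range of the other 9 populations for 2168 (24.5%) and below it for 1595 (18.1%). It lay above the range for 38 of 53 G2 and M-phase, 25 of 38 S-phase, 15 of 17 nuclear envelope and chromatin and 14 of 17 MYC target genes. It lay below for 9 of 12 MHC class I genes. The smaller number of unlisted persisters widens their ratios, so part of such a count is counting error.

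**Figure D3:**
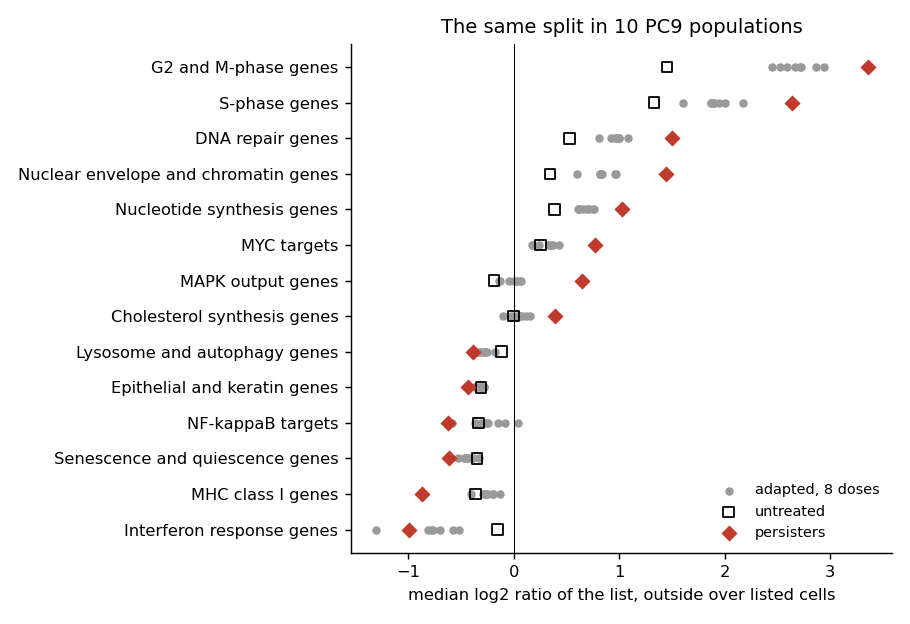
Median log2 ratio of unlisted to listed cells for 14 gene lists in persisters (diamonds), untreated cells (squares) and the 8 adapted populations (circles). Persisters lie at 3.36 for G2 and M-phase genes and at -0.88 for MHC class I genes, outside the range of the others, and at -0.996 for interferon response genes, within it.

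MYC targets lay above 0 by small amounts. The 17 measured MYC targets, which hold genes of ribosome and nucleolus assembly and of translation and the enzymes CAD of pyrimidine and ODC1 of polyamine synthesis, all lay above 0 with a median of 0.77 on the log2 scale, against 0.18 to 0.43 in the other populations. Their ratios stayed under 2-fold except for NOP56, a nucleolar protein, at 139 against 66.0 CPM (2.11-fold, 1.72 to 2.58), which stood at 0.99 on the log2 scale with trimmed mean (TMM) scaling. Glycolytic enolase ENO1 stood at 572 against 286 CPM (2.00-fold, 1.81 to 2.20), just under the threshold, in a list in which 1 of 16 genes, the lactate transporter SLC16A3, was lower (under 2-fold in thinned cells) and none higher. FADS1, a fatty acid desaturase, stood at 95.1 against 29.2 CPM (3.26-fold, 2.48 to 4.29). None of the 12 measured cholesterol synthesis genes and none of the 14 heat shock chaperones reached 2-fold.

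The target of the drug differed little between the groups. EGFR stood at 857 CPM in unlisted and 714 CPM in listed persisters, 1.20-fold (1.11 to 1.29). Of 9 measured genes of the EGFR family and its ligands, the ligands AREG and EGF were higher, AREG at 20.2 against 6.36 CPM (3.18-fold, 1.72 to 5.89), EGF at 20.2 against 7.95 CPM and under 2-fold with a pseudocount of 5 CPM. The receptor FGFR1 stood at 31.7 against 8.75 CPM (3.62-fold, 2.20 to 6), and MET at 427 against 552 CPM (1.29-fold lower, 1.17 to 1.43). AREG, EGF and FGFR1 passed the minimum through unlisted persisters alone, where they are high. Of 12 measured genes that report ERK signalling 2 were higher, the feedback inhibitor SPRED1 (2.98-fold, 1.83 to 4.83) and PHLDA1 (2.86-fold, 1.61 to 5.06), and 2 were lower, EGR1 and DUSP5, though not with a pseudocount of 5 CPM (-0.89 and -0.87 on the log2 scale). PHLDA1 passed the minimum through unlisted and DUSP5 through listed persisters alone. The ERK target FOSL1 stood at 272 against 138 CPM (1.97-fold, 1.71 to 2.27) and the phosphatase DUSP4 at 37.0 against 18.6 CPM (1.99-fold, 1.33 to 2.96). The median of this list was 0.64 in persisters and -0.19 to 0.07 in the other 9 populations, but 0.06 in thinned persisters, where 7 of its genes were measured. Other genes higher outside the table and above the range of the other populations were the keratin KRT6A (51.1 against 17.2 CPM), the metallothionein MT1E (60.7 against 20.9 CPM) and the phosphatase UBASH3B (113 against 33.9 CPM, 3.32-fold, 2.58 to 4.28).

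Among the genes lower in unlisted persisters, LCN2, the secreted iron-siderophore carrier lipocalin 2, stood at 1359 CPM in unlisted and 5288 CPM in listed persisters, 3.89-fold lower (3.69 to 4.10). The lowest ratios belonged to LEMD1 with 1 UMI against 100 UMIs, and to KLRD1, a lectin-like receptor known from natural killer cells, with 3 against 178 UMIs (17.9-fold lower, 6.02 to 87.5), so both rest on few UMIs on the unlisted side. KLRD1 had a UMI in 0.763% of thinned unlisted and 15.2% of thinned listed persisters. ABCA1, the cholesterol exporter, stood at 12.3 against 87.7 CPM (7.12-fold lower, 4.18 to 13.2). RARRES1 stood at 38.7 against 218 CPM (5.63-fold lower, 4.16 to 7.81), and PLAT, tissue plasminogen activator, at 7.04 against 47.7 CPM. The elastase inhibitor PI3 (4.92-fold lower, 3.06 to 8.42), the complement protease C1R (3.93-fold lower, 2.46 to 6.64) and the lysosomal protease CTSO (9.86-fold lower, 3.76 to 36.7) lay below the range of the other 9 populations. The aldehyde dehydrogenase ALDH3A1, at 177 against 555 CPM, also lay below that range. Several of the genes above, among them ABCA1, PLAT, C1R and CTSO, passed the minimum through listed persisters alone. CTSO stood at 3.52 against 34.7 CPM, near the 2.64 CPM that 3 counts equal in unlisted persisters.

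Antigen presentation and interferon genes lay on the same side. Of 12 measured MHC class I genes, 9 of which passed the minimum on both sides, 11 lay below 0. At least 2-fold lower were 3 of them, HLA-B, HLA-F and the proteasome subunit PSMB10. Of these 3, HLA-F and PSMB10 passed the minimum through listed persisters alone, where they are high. PSMB10 had 5 against 38 UMIs and was under 2-fold with a pseudocount of 5 CPM (-0.68 on the log2 scale). HLA-B stood at 124 against 310 CPM (2.50-fold lower, 2.10 to 3). B2M, the common light chain of these molecules, stood at 946 against 1835 CPM (1.94-fold lower, 1.82 to 2.07), a log2 ratio of -0.95 against -0.33 to -0.16 in the other populations. Of the 31 interferon response genes 15 were measured, 10 of them through listed persisters alone, so that their direction is partly fixed by the minimum. All 15 lay below 0. Of the 16 not measured, 12 lay below and 4 above 0, OAS3 (16 against 23 UMIs), OAS1 (11 against 23), ISG20 (8 against 18) and IFITM1 (1 against 3). With a minimum of 50 CPM, which both sides can pass, 4 were measured and 2 were lower. By the usual minimum 7 were at least 2-fold lower, among them IFIT3 (5 against 76 UMIs), IFIT2 (3.61-fold lower, 1.96 to 7.42) and IFITM3, which blocks virus entry (3.09-fold lower, 2.31 to 4.20). Their median of -0.996 lay within the range of the same split elsewhere, -1.31 to -0.15. IRF1, a factor that can turn on MHC class I genes, stood at 24.6 against 71.8 CPM (2.91-fold lower, 1.97 to 4.47).

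Of 12 measured NF-kappaB targets 4 were lower and none higher: LCN2, CXCL1 with 2 against 38 UMIs, ICAM1 and TNFAIP2, the last 2 under 2-fold in thinned cells. The list held LCN2, whose values dominate its sum of 1703 against 5823 CPM. Of 17 measured senescence and quiescence genes 6 were lower, 2 of them passing the minimum through listed persisters alone. Among the 6, KLF9 was under 2-fold with a pseudocount of 5 CPM (-0.98 on the log2 scale) and in thinned cells (-0.79). IGFBP5, a secreted growth factor binding protein, stood at 67.8 against 260 CPM (3.83-fold lower, 3.03 to 4.89), and YPEL3 at 31.7 against 115 CPM (3.64-fold lower, 2.59 to 5.27). LMNB1, which is lost in senescent cells, was the 1 gene of that list that was higher. FOS, the immediate early factor, stood at 49.3 against 156 CPM (3.16-fold lower, 2.40 to 4.23). Among 17 epithelial genes the mucin MUC1 (4.07-fold lower, 2.58 to 6.76) and the claudin CLDN3 were lower, and among 18 lysosomal genes GRN, which encodes progranulin, and PSAP. CLDN3 and PSAP were under 2-fold in thinned cells.

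**Figure D4:**
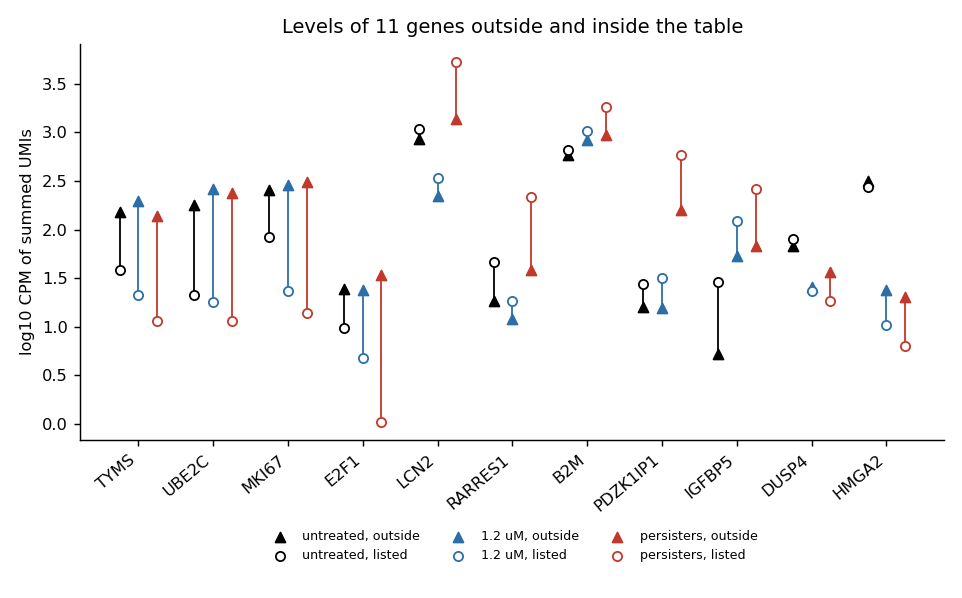
Levels of 11 genes (log10 CPM of summed UMIs) in unlisted (triangles) and listed cells (circles) of untreated, 1.2 µM adapted and persister populations, with 1 value per group and no replicates. TYMS lies between 139 and 197 CPM in the 3 unlisted groups, and LCN2 stands at 1359 CPM in unlisted and 5288 CPM in listed persisters.

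Whether unlisted persisters kept the expression of persisters was read from genes chosen in listed cells alone. The ratio of listed persisters to listed untreated cells gave 50 genes at its top and 50 at its bottom, in a comparison in which 10.9% of genes were higher and 8.65% lower. In unlisted persisters against unlisted untreated cells, where 5.45% of all genes were higher and 3.98% lower, 47 of the 50 chosen higher genes exceeded 2-fold upward and 38 of the 50 chosen lower genes did so downward. The medians were 2.16 and -1.86 on the log2 scale. They were 3.12 and -2.81 in the listed cells in which the genes were chosen. The same genes in unlisted 1.2 µM cells against the same untreated cells had medians of 1.73 and -2.02, with 40 and 38 genes past 2-fold against 5.71% and 3.72% of all genes. Both comparisons share the untreated cells.

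PDZK1IP1, a small membrane protein of epithelia, stood at 160 CPM in unlisted persisters and 15.9 CPM in unlisted untreated cells (10.1-fold higher, 8.06 to 12.6), and at 583 CPM in listed persisters. DCLK2, a microtubule-binding kinase, stood at 121 against 7.22 CPM (16.7-fold higher, 12.4 to 22.7) and NUPR1, a stress-induced chromatin protein, at 37.9 against 2.97 CPM (12.7-fold higher, 7.73 to 21.3). IGFBP5 stood at 67.8 against 5.31 CPM (12.8-fold higher, 8.83 to 18.6). On the other side HMGA2, a chromatin protein of proliferating and embryonic cells, stood at 20.2 against 313 CPM (15.5-fold lower, 10.3 to 24.5), and the integrin ITGA6 at 143 against 711 CPM (4.99-fold lower, 4.27 to 5.87). The unlisted persisters lay between unlisted untreated cells and listed persisters in each of these 6 genes. The genes were picked for extreme values in listed persisters, which favours that order, and not all chosen genes followed it. CTSO stood at 3.52 CPM in unlisted persisters, 4.67 CPM in unlisted untreated cells and 34.7 CPM in listed persisters. CEACAM6 stood at 3.52, 113 and 19.1 CPM in the same groups.

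A score per cell was the mean log2 level of the 50 higher genes minus that of 45 lower genes. The 5 lower genes left out were those in the S-phase or the G2 and M-phase list. Genes outside these lists stayed in, among them DBF4 (74.8 CPM in unlisted, 6.89 CPM in listed persisters) and LMNB1 (55.5 and 5.30 CPM). In unlisted against listed persisters, 29 of the 45 exceeded 2-fold upward, which lowers the score of unlisted cells, and 2 downward. How much of the gap in score follows the cell cycle was not tested. The median score was 0.09 in unlisted persisters, 0.57 in listed persisters, -0.72 in unlisted untreated cells and 0.05 in unlisted 1.2 µM cells. Of the 150 unlisted persisters 148 (98.7%) lay above the 95th percentile of unlisted untreated cells, as did 98.5% of unlisted 1.2 µM cells and 89.4% to 98.6% of those of the other adapted populations, so this level sets persisters apart from untreated and not from adapted cells. At or above the 5th percentile of listed persisters lay 75 of the 150 unlisted persisters and 37.4% of unlisted 1.2 µM cells. In thinned cells the counts were 127 and 65 of 131, and the medians 0.07 and 0.54 in unlisted and listed persisters.

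**Figure D5:**
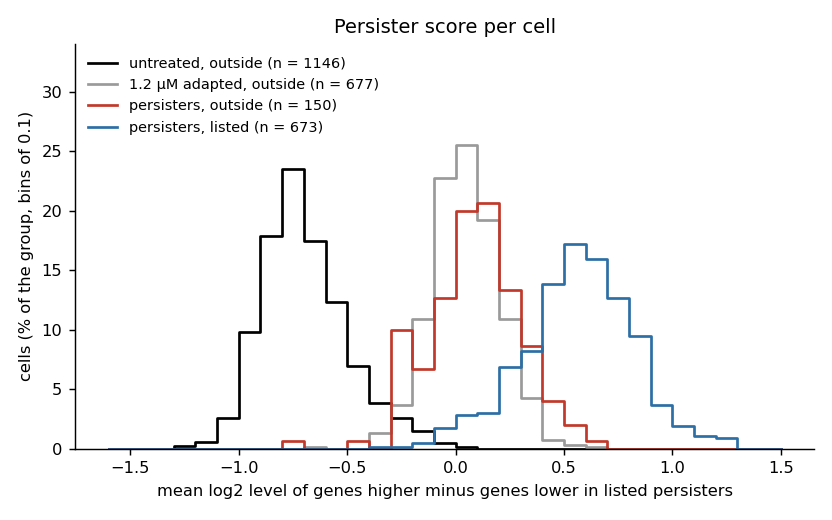
Distribution of the persister score per cell in 4 groups (percent of each group in bins of 0.1 score units, lines are histograms). Unlisted persisters have a median of 0.09, between unlisted untreated cells (-0.72) and listed persisters (0.57), and overlap with unlisted 1.2 µM cells (0.05).

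A second choice of genes, made after the first result was seen, set listed persisters against listed 1.2 µM cells, where 3.90% of genes were higher and 2.75% lower. Of its 50 higher genes, 41 were at least 2-fold higher in unlisted persisters than in unlisted 1.2 µM cells, a comparison in which 155 of all 8714 genes (1.78%) were higher and 127 (1.46%) lower. Of its 50 lower genes, 24 were at least 2-fold lower. PDE1C, a calmodulin-dependent phosphodiesterase, stood at 62.5 against 1.37 CPM (45.7-fold higher, 21 to 118), and LCN2 at 1359 against 221 CPM (6.15-fold higher, 5.69 to 6.65). The kisspeptin gene KISS1 stood at 31.7 against 394 CPM (12.4-fold lower, 8.96 to 17.8) and TENM2, an adhesion receptor, at 39.6 against 185 CPM (4.68-fold lower, 3.47 to 6.45). A score from these genes had a median of 0.17 in unlisted persisters, 0.65 in listed persisters and -0.47 in unlisted 1.2 µM cells. Above the 95th percentile of unlisted 1.2 µM cells lay 137 of 150 unlisted persisters (117 of 131 in thinned cells). Of unlisted untreated cells 93.0% also lay above it, as did 84.2% of unlisted 8 nM and 71.7% of unlisted 16 nM cells. This score thus sets persisters apart from 1.2 µM cells and not from untreated, 8 nM or 16 nM cells. On the first score 89.4% of unlisted 8 nM and 94.1% of unlisted 16 nM cells also passed its level. Neither level therefore sets unlisted persisters apart from these low-dose cells.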

How the data were processed

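Single-cell 3′ RNA sequencing of 1 pooled PC9 library gave UMI counts, which the labels call expression counts; the deposited values are whole numbers over 15429 genes. Cell Ranger 7.0.0 and GRCh38 are named in the submitters' processing notes. Filters on cells and genes are not given in the sources used here. The authors' cell table gives, per the file headers, the count of UMIs and genes of 4208 cells, the percent of UMIs in mitochondrial genes (at most 20% in a PC9 cell) and a cluster number. UMIs and genes matched the count table in all 4208. Populations were read from the suffix of each cell name. The A375 tables were not used.

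UMIs were summed per population and side of the table and scaled to 1000000 (CPM, counts per 1000000 UMIs), and ratios taken as log2(CPM + 1). A gene was measured at 10 CPM and 20 UMIs on the higher side and called at 2-fold. With 1 culture per population there is no test. No doublet caller was run; an alternative dropped cells above 2 times the median depth. Per-cell shares were thinned to 3783 UMIs. Score levels are log2 of UMIs per 10000 plus 1. The members and the 40 gene lists were chosen with earlier results of these data known. Named genes were TYMS, UBE2C, MKI67, TOP2A and EGFR, the 15 highest and 10 lowest ratios at 25 CPM or more without clone-named, antisense and LINC genes, up to 6 members of each list with the largest ratios, 10 genes per direction farthest outside the other populations' range, and 10 per direction of each persister choice. RB1, RBL2, LMNA, RANGAP1, CTCF, SLBP, TIPIN, CASP8AP2, H2AFZ, 3 lower histone genes, MCM4, KRT18, KRT19, EPCAM, E2F5, GADD45B, BCL2, PMAIP1, BCL2L11, BID and the interferon genes under the minimum fall outside this rule and were named after their values were seen. Promoters named by the rule were printed where the RefSeq table (GRCh38.p14) held them. UBE2C and WDR76 were named by it too; TYMS was printed as a marker. The ratio and interval code was tested on simulated data for unlisted against listed persisters: 50 of 50 genes set 3-fold higher, 49 of 50 set 3-fold lower and 36 of 8390 unchanged genes were called. Simulated counts held counting error alone. Calculations used Python 3.11.15, numpy 2.4.6, scipy 1.17.1, pandas 2.3.3 and, for TMM factors, R 4.3.3 with edgeR 4.0.16.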

Additional observations from a re-analysis of the deposited data

How the results depend on the processing

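Each persister population is 1 culture in 1 library, so the values carry counting error alone, spread between cultures is unknown, and which rule put a cell in the table is not stated. Over the alternatives that measured them, 1 of the 667 higher genes, in thinned cells (369 measured), and 0 of the 492 lower genes changed sign, whereas medians of lists near 0 could, such as that of the kinase inhibitors (-0.33 to 0.37). With a pseudocount of 5 CPM, 314 genes were lower and the G2 and M-phase median was 2.85. With a minimum of 50 CPM, 304 genes were higher and 160 lower, and with a threshold of 1.5-fold 1430 and 1261, as both settings must move the counts. In thinned cells 432 were higher and 653 lower; 347 of the 667 and 363 of the 492 called genes were among them. TMM scaling gave 607 and 572. Without cells over 2 times the median UMIs (16 unlisted and 11 listed left out) 628 and 528 were called and 16.8% of persisters were unlisted. With listed cells of cluster 1 only, chosen after seeing the data, 710 and 541 were called. Of the named genes past 2-fold, 73 of 81 higher and 41 of 60 lower ones stayed past it in every alternative that measured them, the 1.5-fold threshold aside. Among those given above, EGR1, DUSP5, PSMB10, EGF, NOP56, ICAM1, TNFAIP2, KLF9, CLDN3, PSAP and SLC16A3 did not. The 73 include ANO1, CAPN8, KIAA1549L, LSAMP, PAG1 and SCD, which were under the minimum. No alternative measured these, so their place among the 73 says nothing of how stable they are. No paired analysis was possible because each PC9 population is 1 culture and the replicate numbers of the labels belong to sequencing runs of the A375 pool, which was not used.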

Other observations

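Genes of cell death, stress and metabolism showed small counts past 2-fold between unlisted and listed persisters. Of 15 BCL2 family genes 11 were measured, 3 were lower and none higher, and none of 5 was lower with a minimum of 50 CPM. BCL2 itself, with 14 UMIs in unlisted and 2 in listed persisters, was under the minimum. The 3 lower genes passed it through listed persisters alone, where they are high. They were BMF with 3 against 56 UMIs, BBC3 with 6 against 56 UMIs and HRK with 6 against 47 UMIs, all of them activators of apoptosis that carry a BH3 domain alone. Other genes of that kind were under 2-fold. On the log2 scale BAD (0.62) and PMAIP1 (0.29) lay above 0, and BCL2L11 (-0.26), BID (-0.25) and BIK (-0.95, and -2.39 in thinned cells) below. BBC3 and HRK were under 2-fold with a pseudocount of 5 CPM. Of 13 measured p53 targets DDB2, a damage sensor, was higher at 55.5 against 18.3 CPM (3.03-fold, 2.12 to 4.33), and GDF15, BBC3 and ZMAT3 were lower. All 3 lower p53 targets passed the minimum through listed persisters alone, where they are high. Of 12 ATF4 and NUPR1 stress genes PHGDH, the first enzyme of serine synthesis, was higher (2.17-fold, 1.58 to 2.98), though under 2-fold in thinned cells, and DDIT3, DDIT4 and NUPR1 were lower, NUPR1 at 37.9 against 83.8 CPM (2.21-fold, 1.61 to 3.12). DDIT3 and DDIT4 passed the minimum through listed persisters alone. None of 25 nuclear and 13 mitochondrially encoded genes of the respiratory chain list reached 2-fold, and none of 15 mesenchymal and matrix genes did.

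Of 20 YAP and TEAD targets ANKRD1 was higher at 53.7 against 20.7 CPM (2.60-fold, 1.83 to 3.68), as was TEAD4 at 2.15-fold (1.52 to 3.02), and none was lower, though GADD45B was lower in thinned cells. ANKRD1 stood at 5.09 CPM in unlisted untreated and 31.5 CPM in unlisted 1.2 µM cells. DDIT3, DDIT4, ZMAT3 and TEAD4 were under 2-fold in at least 1 alternative.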
